A study of Homo sapiens with 12 samples.

Results

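The guanylate-binding proteins (GBPs) are large GTPases encoded by a cluster of genes on human chromosome 1. GBP1, GBP2, GBP3, GBP4 and GBP5 were followed here through 12 RNA-seq libraries of SUM149PT cells, an established line from an inflammatory breast cancer. They were chosen by name, on levels and log2 changes already known from these libraries. All 5 were listed among the 23228 genes of the count files, and 4 had enough counts to be tested; GBP4 did not. The 4 groups of 3 libraries (replicates A, B and C) were 5 µM ipatasertib plus 5 µM tazemetostat (called the combination), 5 µM ipatasertib alone, 5 µM tazemetostat alone, and DMSO, the solvent. Ipatasertib inhibits the AKT kinases and tazemetostat inhibits EZH2, the methyltransferase of the Polycomb repressive complex that marks histone H3 at lysine 27. Cells were kept in tazemetostat or DMSO from day -5, plated at 250000 cells per 6 cm dish, moved to medium with 2% serum and the inhibitors on day 0, and collected 24 h later. The tazemetostat exposure was thus longer than the ipatasertib exposure, the same line is labelled WT in every group, and the labels do not say whether replicates were separate cultures. Every p-value therefore speaks only of the spread among the 12 libraries, part or all of which may be technical.

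GBPs are among the most strongly interferon-inducible proteins of human cells. Interferon-gamma signals through the kinases JAK1 and JAK2 to gamma-activated sites (GAS) in DNA and induces IRF1, which binds the interferon-stimulated response elements (ISRE) found in many GBP promoters. The proteins hydrolyse GTP, assemble into polymers and coat the membranes of intracellular bacteria and parasite vacuoles. GBP1, GBP2 and GBP5 end in a motif that is prenylated, which anchors them to membranes, whereas GBP3 and GBP4 lack it. In the RefSeq gene order the protein-coding members of the cluster follow each other as GBP3, GBP1, GBP2, GBP7, GBP4, GBP5 and GBP6.

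The promoter sequences show the element that the family is known for, and how alike the promoters of GBP1 and GBP3 are, a pair with unlike log2 changes in these libraries. RefSeq promoters (build GRCh38.p14, 250 bases before to 50 after the start) were matched for 3 of the 5 members, GBP1, GBP3 and GBP4; GBP2 and GBP5 are named only. The ISRE core (GAAA, any 2 bases, GAAA), searched on both strands like each motif here, was found in all 3, against 3.57% of 35116 promoters. In each it lay on the opposite strand and so reads TTTC, any 2 bases, TTTC in the direction of the gene, at positions -127 to -118 of GBP1, 3 to 12 of GBP3 and -4 to 6 of GBP4, counted from the start. The 30 bases around each, all on the minus strand of chromosome 1, are printed 5′ to 3′ with the match in capitals.
GBP1, chr1:89065316-89065345: aacgaagtacTTTCAGTTTCatattactct
GBP3, chr1:89022845-89022874: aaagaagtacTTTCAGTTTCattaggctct
GBP4, chr1:89198927-89198956: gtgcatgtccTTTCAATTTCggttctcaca
The GBP1 and GBP3 windows were identical at 25 of 30 bases, and each matched the GBP4 window at 16 of 30.

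The same windows sit at different distances from the annotated starts of GBP1 and GBP3. Over the 156 bases that could be aligned, the GBP1 and GBP3 promoters were 80.1% identical. The 250 bases upstream of each start are shown for these genes, with the ISRE match of GBP1 and the GAS match (TTCNNNGAA) of GBP3 in capitals.
GBP1, chr1:89065209-89065458, minus strand: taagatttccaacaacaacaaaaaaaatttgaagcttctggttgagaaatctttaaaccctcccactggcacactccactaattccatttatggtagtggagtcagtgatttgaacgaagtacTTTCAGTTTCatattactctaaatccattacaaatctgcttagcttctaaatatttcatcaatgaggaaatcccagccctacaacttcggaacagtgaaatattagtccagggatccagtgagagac
GBP3, chr1:89022867-89023116, minus strand: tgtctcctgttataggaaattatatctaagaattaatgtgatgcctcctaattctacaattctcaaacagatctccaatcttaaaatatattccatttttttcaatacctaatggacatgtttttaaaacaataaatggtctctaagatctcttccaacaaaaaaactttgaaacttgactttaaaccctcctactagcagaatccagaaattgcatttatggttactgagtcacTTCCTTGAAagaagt
A GAS match was present in GBP3, at -15 to -7, among the 3 members and in 7.66% of all promoters. An NF-kB-like match (GGG, any 3 bases, TTCC) was present in GBP4, at -45 to -36, and in 6.52% of all promoters. The FOXO core GTAAACA was in none of the 3 promoters and in 3.42% of all promoters. Forms with another first base, such as ATAAACA, were not searched. FOXO factors are transcription factors that AKT keeps out of the nucleus.

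Gene counts summed to between 22355242 and 49970540 per library, and levels are given as CPM, counts scaled to a common library size. Where a gene had 0 counts, up to 3 counts are allowed, worth 0.0600 to 0.134 CPM by library, a limit that covers counting error only. Reads in no single gene made up 37.4% to 38.6% in ipatasertib and 35.7% to 38.0% in combination libraries, and 29.8% to 30.7% in tazemetostat and 31.0% to 32.9% in DMSO libraries. Combination B and tazemetostat A differed most from their own replicates, with a chi-square per degree of freedom of 15.1 to 26.2 and 18.2 to 20.1 for pairs that held them. Of the combination libraries, B had the highest CPM for GBP1, GBP2, GBP3 and GBP5. The epithelial marker EPCAM averaged 343 CPM in combination, 337 in ipatasertib, 311 in tazemetostat and 323 in DMSO libraries. The 6 epithelial markers summed to 1510 to 1580 CPM in combination, 1580 to 1710 in ipatasertib, 2220 to 2440 in tazemetostat and 2650 to 2770 in DMSO libraries. The 5 fibroblast markers summed to 80 to 86.2, 343 to 381, 111 to 118 and 548 to 575 CPM in these groups, and the 4 endothelial markers to 4.83 to 6.70, 3.09 to 3.89, 1.44 to 1.93 and 0.932 to 1.44 CPM. The epithelial marker KRT5 averaged 54.6 CPM in the combination and 633 with DMSO. Of the fibroblast markers, COL1A1 averaged 204 CPM with ipatasertib and 424 with DMSO, and COL3A1 13.7 and 31.6. DCN (131 and 98.8), LUM (12.6 and 10.1) and PDGFRB (0.399 and 0.194) were higher with ipatasertib than with DMSO. Of 10 leukocyte markers, MS4A1 was at 0 in every library and the T-cell genes CD3E, CD3D and CD2 had 0 to 3 counts per group. Their summed level was 221 to 269 CPM in combination, 288 to 301 in ipatasertib, 279 to 317 in tazemetostat and 366 to 420 in DMSO libraries, most of it from CD68. PTPRC, the pan-leukocyte antigen CD45, averaged 1.74 CPM in combination, 0.650 in ipatasertib, 0.336 in tazemetostat and 0.319 in DMSO libraries. The part of these markers in the GBP values was not tested.

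The family did not move as a block. GBP2 was higher with each inhibitor and highest with both, GBP1 was lower with each and lowest with both, GBP5 was higher wherever tazemetostat was present, and GBP3 differed little between groups, with its lowest level in the combination. In the fit over all genes (edgeR's quasi-likelihood test, Benjamini-Hochberg adjusted over 14874 genes, threshold 0.05), 4 of 4 tested members were past the threshold in the combination against DMSO, where 71.0% of all genes were. Of these 2 were higher and 2 lower, beside 36.5% and 34.5% of all genes. With ipatasertib alone 2 of 4 were past it, beside 54.1% of all genes, with 1 higher (background 25.4%) and 1 lower (background 28.7%). With tazemetostat alone 3 of 4 were past it, beside 46.0%, with 2 higher (background 25.1%) and 1 lower (background 20.9%). In the combination against ipatasertib 4 of 4 were past it, beside 39.1%, with 2 higher (background 21.8%) and 2 lower (background 17.3%). In the combination against tazemetostat 3 of 4 were past it, beside 60.6%, with 1 higher (background 29.8%) and 2 lower (background 30.8%). Libraries of the groups did not overlap for 4 of 4 members in the combination against DMSO (71.9% of all genes), 2 with ipatasertib (66.1%) and 3 with tazemetostat (55.7%). They did not overlap for 4 in the combination against ipatasertib (46.9%) and 3 against tazemetostat (59.3%). The genes were chosen with these comparisons known, so the counts describe them and carry no weight as a test. The median log2 change over the 4 was 0.56 in the combination, 0.09 with ipatasertib and 0.44 with tazemetostat, all against DMSO, and 0.02, -0.01 and 0.02 over all genes tested in the same comparisons. Since these are bulk samples, fewer cells that express a gene and less RNA per cell cannot be told apart.

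**Figure D1:**
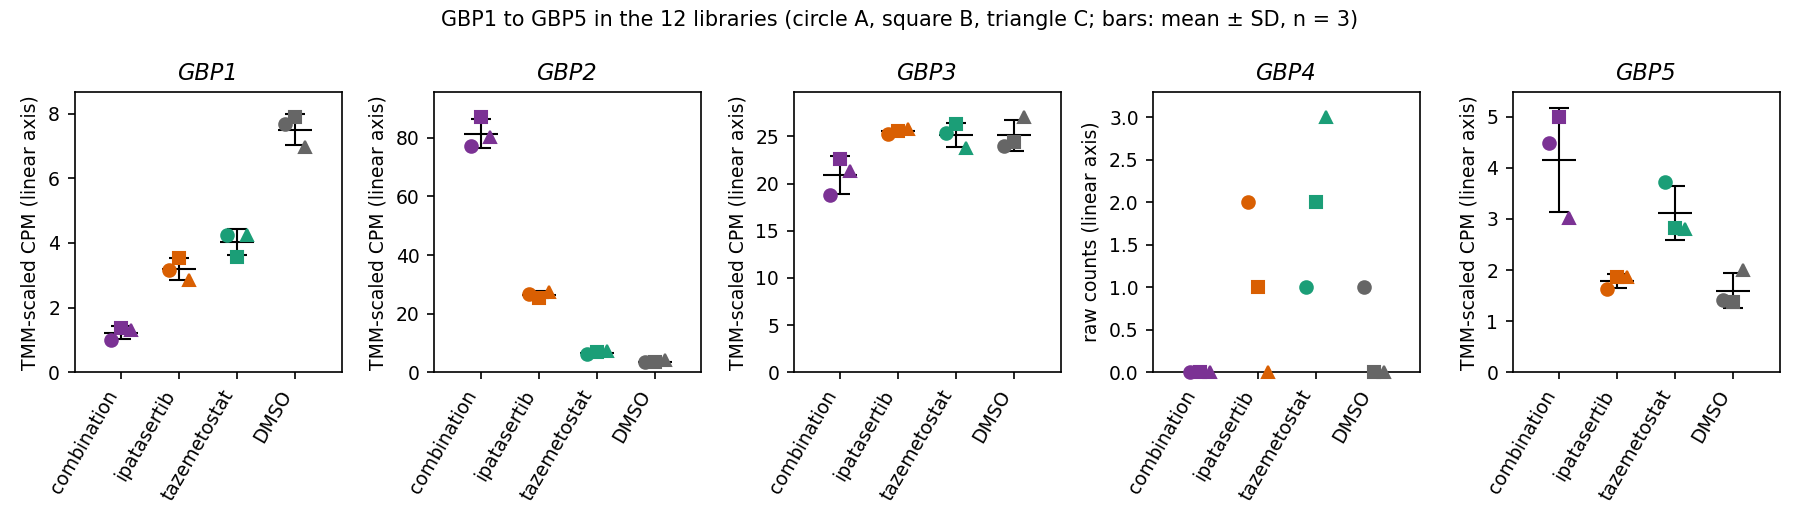
Level of GBP1 to GBP5 in each of the 12 libraries, in TMM-scaled CPM (raw counts for GBP4) on linear axes, with the mean and SD of 3 libraries as bars. GBP2 reads 77.2 to 86.9 CPM in combination libraries and 3.40 to 4.02 CPM in DMSO libraries, while GBP1 reads 1.0 to 1.38 and 6.96 to 7.88 CPM in the same groups.

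GBP2, a prenylated member that binds the Golgi and bacterial membranes, showed the widest range. Its level was 77.2, 86.9 and 80.1 CPM in combination libraries A, B and C, 26.6, 25.2 and 27.5 CPM with ipatasertib, 6.15, 6.79 and 7.19 CPM with tazemetostat, and 3.54, 3.40 and 4.02 CPM with DMSO. No library of any group overlapped another group, and the order was combination, ipatasertib, tazemetostat, DMSO. The means were 81.4 ± 4.98 CPM in the combination, 26.4 ± 1.12 with ipatasertib, 6.71 ± 0.524 with tazemetostat and 3.65 ± 0.327 with DMSO (SD, n = 3 each). Against DMSO, GBP2 was 22.3-fold higher in the combination (log2 change 4.48, SE 0.09), 7.26-fold higher with ipatasertib (2.86, SE 0.09) and 1.85-fold higher with tazemetostat (0.88, SE 0.10). Ranked from the highest log2 change of 14874 genes, it stood at place 95 in the combination, 32 with ipatasertib and 1219 with tazemetostat. GBP2 in the combination also stood above its level with either inhibitor alone. The combination exceeded ipatasertib alone 3.08-fold (1.62, SE 0.07) and tazemetostat alone 12.1-fold (3.60, SE 0.08, place 14).

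GBP1, the best studied member, which forms coats on cytosolic bacteria, ran the other way. Combination libraries had 1.0, 1.38 and 1.31 CPM, ipatasertib libraries 3.16, 3.54 and 2.87 CPM, tazemetostat libraries 4.24, 3.56 and 4.26 CPM, and DMSO libraries 7.66, 7.88 and 6.96 CPM. Again no groups overlapped, although ipatasertib B (3.54 CPM) and tazemetostat B (3.56 CPM) nearly met. On average GBP1 had 1.23 ± 0.199 CPM in the combination, 3.19 ± 0.335 with ipatasertib, 4.02 ± 0.398 with tazemetostat and 7.50 ± 0.478 with DMSO (SD, n = 3 each). GBP1 was 6.08-fold lower in the combination than in DMSO (log2 change -2.60, SE 0.15), 2.35-fold lower with ipatasertib (-1.23, SE 0.13) and 1.87-fold lower with tazemetostat (-0.90, SE 0.12). Counted from the lowest log2 change, it held place 43 of 14874 in the combination, 224 with ipatasertib and 235 with tazemetostat. GBP1 in the combination was likewise below its level with either inhibitor alone. The combination lay 2.59-fold below ipatasertib (-1.37, SE 0.17) and 3.26-fold below tazemetostat (-1.70, SE 0.15).

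GBP3, which lacks the prenylation motif, was the steadiest of the 4. It read 18.8, 22.7 and 21.4 CPM in combination libraries, 25.2, 25.6 and 25.8 CPM with ipatasertib, 25.3, 26.3 and 23.8 CPM with tazemetostat, and 24.0, 24.4 and 27.0 CPM with DMSO. The combination libraries were all below the other 9, and the other 3 groups overlapped. The log2 change against DMSO was -0.26 (SE 0.08) in the combination, 0.02 (SE 0.08) with ipatasertib and 0.00 (SE 0.08) with tazemetostat. The combination was 1.20-fold lower than DMSO, and the difference was no longer past the threshold (log2 change -0.13) when libraries were scaled by total gene counts alone. Against ipatasertib the log2 change was -0.29 (SE 0.08), and against tazemetostat -0.26 (SE 0.08); the call against tazemetostat was lost without combination A, at -0.17.

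GBP5, a prenylated member known to promote inflammasome assembly, followed tazemetostat rather than ipatasertib. Combination libraries had 4.48, 4.98 and 3.02 CPM, ipatasertib libraries 1.63, 1.86 and 1.87 CPM, tazemetostat libraries 3.73, 2.81 and 2.81 CPM, and DMSO libraries 1.41, 1.38 and 1.99 CPM. The 6 libraries with tazemetostat were above the 6 without it, while the combination overlapped tazemetostat alone and ipatasertib overlapped DMSO. GBP5 was 2.60-fold higher in the combination than in DMSO (log2 change 1.38, SE 0.20) and 1.97-fold higher with tazemetostat (0.98, SE 0.20). With ipatasertib alone the log2 change was 0.17 (SE 0.23). The combination was 2.32-fold above ipatasertib (1.21, SE 0.20). Its difference from tazemetostat was 0.40 (SE 0.18) and not past the threshold, but it passed without tazemetostat A, at 0.57, without combination C, at 0.63, and in 6 further alternatives, between 0.39 and 0.47. GBP5 rested on 43 to 160 counts per library and had the widest relative spread of the 4 in 3 groups, with a coefficient of variation of 24.5% in combination, 16.9% in tazemetostat and 21.7% in DMSO libraries. In ipatasertib libraries it was 7.61%, against 10.5% for GBP1.

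GBP4 was at the limit of detection in these cells. It had 0, 0 and 0 counts in the combination, 2, 1 and 0 with ipatasertib, 1, 2 and 3 with tazemetostat, and 1, 0 and 0 with DMSO. In combination libraries A, B and C, 0 counts allow up to 0.112, 0.115 and 0.0847 CPM. A difference between groups was not detectable at this depth, and no fold is given. Of the relatives outside the 5, GBP6 had 0 counts in the combination, 3 with ipatasertib, 32 with tazemetostat and 32 with DMSO, summed over 3 libraries. With its 0 counts set to 3 over the combination group, GBP6 was 8.77-fold below its DMSO mean. That value leaves out the spread among DMSO libraries, which had 5 to 17 counts each. In the fit over all genes GBP6 was lower and past the threshold in the combination and with ipatasertib alone. Its log2 change with ipatasertib alone was -3.02 (SE 0.77), on 3 summed counts. GBP6 is counted below among the other GTPases that fell in these groups. GBP7 had 13 summed counts in the combination, 11 with ipatasertib, 14 with tazemetostat and 5 with DMSO, too few for a fold.

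Sequence shared between members limits how far reads can be assigned. The coding sequences of GBP1 and GBP3 were 91.6% identical, those of GBP1 and GBP2 82.4%, and those of GBP2 and GBP3 82.9%. Stretches of 50 bases shared in full made up 3.40% of GBP1 and 3.70% of GBP3 when these were compared, and none of GBP5. GBP2 and GBP7 shared 9.15% of GBP2 and 23.4% of GBP7. The shares are of all distinct stretches in the annotated transcripts of a gene, 6264 for GBP2, whose exons cover 2220 bases. The share of a single transcript can therefore be higher. GBP1 also shared 6.60% with the pseudogene GBP1P1, which had at most 3 counts in any library. The read length is not given in the sources used here.

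**Figure D2:**
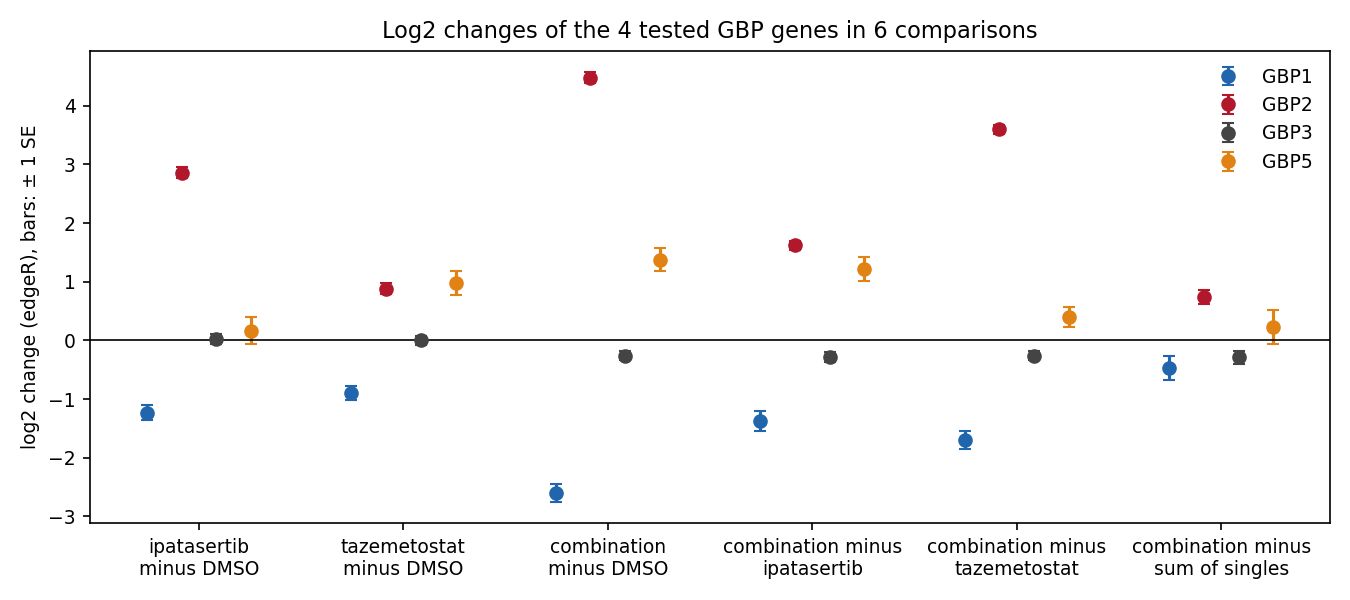
Log2 changes of GBP1, GBP2, GBP3 and GBP5 in 6 comparisons, as points with bars of 1 SE from the fit over all genes. GBP2 is above 0 and GBP1 below 0 in each, and GBP3 lies between -0.29 and 0.02.

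With both inhibitors each given alone and together, the combination can be set against the sum of the single log2 changes. For GBP2 the sum was 3.74 and the combination 4.48, a difference of 0.74 (SE 0.13) that was past the threshold in the fit over all genes, where 3.62% of all genes were past it, 1.87% higher and 1.75% lower. That is 1.67-fold more than the product of the single folds. GBP1 came to -2.60 in the combination, against a sum of -2.13, and the difference of -0.47 (SE 0.20) was not past the threshold. GBP5 came to 1.38 against 1.14 (difference 0.23, SE 0.29) and GBP3 to -0.26 against 0.02 (difference -0.29, SE 0.11), neither past it. Without combination B the GBP3 difference was -0.33 and passed, and without both combination B and tazemetostat A it was -0.32 and passed. The number of genes past the threshold in this comparison, 539, became 2443 without combination B, 1046 without tazemetostat A and 4766 without both. It was 243 to 329 without any 1 of DMSO A or B, ipatasertib A or B, tazemetostat B or C, or combination C.

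The make-up of the family was compared per length of exon, as CPM per kb. The summed level of the 5 members was 46.0 ± 3.12 CPM per kb in the combination, 22.2 ± 0.429 with ipatasertib, 14.1 ± 0.260 with tazemetostat and 13.1 ± 0.693 with DMSO (SD, n = 3 each). GBP2 supplied 79.8% ± 0.575 of this sum in the combination, 53.7% ± 1.36 with ipatasertib, 21.5% ± 2.03 with tazemetostat and 12.5% ± 0.533 with DMSO. Per kb of exon, the most abundant member was thus GBP2 in libraries with ipatasertib and GBP3 in libraries without it. With ipatasertib alone this order depended in part on the exon lengths used, 2220 bases for GBP2 and 3067 for GBP3. Before division by length, GBP2 averaged 26.4 CPM and GBP3 25.5 CPM with ipatasertib alone. In ipatasertib B, GBP3 was then the higher, at 25.6 against 25.2 CPM. GBP3 made up 14.8% ± 0.711 in the combination, 37.5% ± 0.630 with ipatasertib, 58.1% ± 2.09 with tazemetostat and 62.5% ± 0.767 with DMSO. GBP1 made up 0.878% ± 0.104 in the combination, 4.74% ± 0.585 with ipatasertib, 9.39% ± 1.01 with tazemetostat and 18.9% ± 2.11 with DMSO. Shares of a sum depend on each other, so the lower share of GBP3 goes with a level that changed by 1.20-fold at most between group means and DMSO. The ratio of GBP2 to GBP1 per kb was 91.8 ± 11.7 in the combination, 11.5 ± 1.67 with ipatasertib, 2.30 ± 0.313 with tazemetostat and 0.670 ± 0.105 with DMSO.

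**Figure D3:**
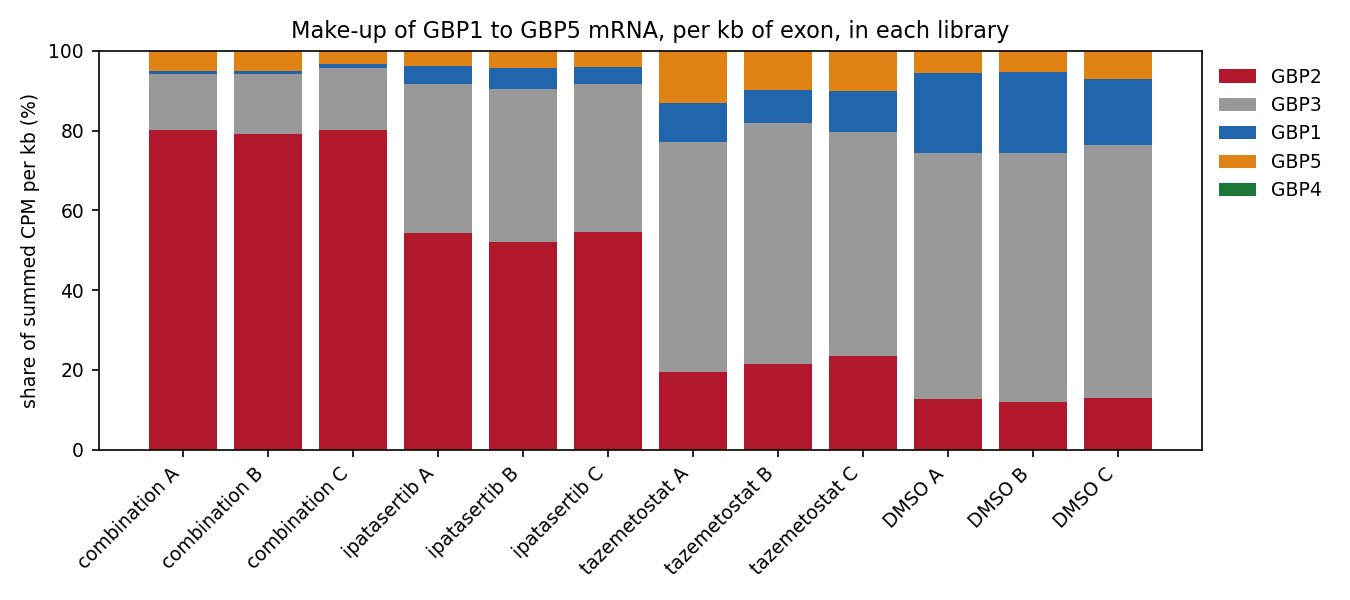
Share of each member in the summed CPM per kb of GBP1 to GBP5, in percent, for each of the 12 libraries. GBP2 fills about the same part of all 3 libraries of a group, on average 79.8% in combination and 12.5% in DMSO libraries, and GBP4 is too low to be seen.

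The genes whose pattern was most like each member were taken by the Euclidean distance between the 3 log2 changes against DMSO, over 12 libraries and without a test. Nearest to GBP2 were PDK4 (distance 0.249), C13orf15 (0.548) and YPEL2 (0.549). PDK4, a kinase that inhibits pyruvate dehydrogenase, had log2 changes of 4.41 in the combination, 3.01 with ipatasertib and 0.69 with tazemetostat. Nearest to GBP1 were FAM198B (0.129), SLC17A9 (0.213) and TAGLN (0.262). GBP5 was nearest to FGFR2 (0.10), FOLR1 (0.161) and XDH (0.163), and FGFR2, a fibroblast growth factor receptor, had log2 changes of 1.48 in the combination, 0.18 with ipatasertib and 0.97 with tazemetostat. GBP3 was nearest to ZNF85 (0.0313), ATP5J2 (0.0323) and TIA1 (0.0371), all with little change.

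Interferon pathway genes, other interferon-inducible or dynamin-related GTPases, and prenylation enzymes with partners of GBP proteins were read from 5 lists. Counts past the threshold are given beside the share of all genes. The lists were drawn up with earlier results of these libraries known, so their counts are descriptions. Of all genes, 36.5% were higher and 34.5% lower in the combination, 25.4% and 28.7% with ipatasertib, and 25.1% and 20.9% with tazemetostat. Scaling by total gene counts moved the median of all genes by 0.14 in the combination and 0.12 with ipatasertib (log2). It moved the share of higher genes among those called to 62.6% in the combination, against 51.4% with TMM scaling, to 63.1% with ipatasertib, against 46.9%, and to 69.6% with tazemetostat, against 54.6%.

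Transcripts of the interferons IFNG, IFNB1 and IFNA1 had 0 counts in all 12 libraries, which allows up to 0.134 CPM in the shallowest. Of 26 tested genes for interferon signalling and regulatory factors, 9 rose and 5 fell in the combination (median log2 change 0.06), 8 rose and 3 fell with ipatasertib (-0.04), and 4 rose and 3 fell with tazemetostat (0.07). IRF1, which binds ISREs, fell by 0.21 on the log2 scale in the combination (SE 0.09, adjusted p = 0.0430 by edgeR's quasi-likelihood test), and was at -0.13 (SE 0.09) with ipatasertib and -0.13 (SE 0.08) with tazemetostat, neither past the threshold.

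In the same list, IFNGR2, a chain of the interferon-gamma receptor, rose in the combination by 0.69 (SE 0.07). JAK1, a kinase that acts with the receptor as a whole, rose by 0.55 (SE 0.06). The other chain, IFNGR1, averaged 107 CPM in the combination and 120 with DMSO, and the other kinase, JAK2, 7.63 and 8.45 CPM. The largest changes in the combination were those of BATF2, an interferon-induced bZIP factor (1.47, SE 0.45), SOCS1, which inhibits JAK kinases (-1.40, SE 0.54), IRF3 (-0.85, SE 0.11) and IRF5 (0.77, SE 0.09). BATF2 rested on 48 summed counts in the combination and 20 with DMSO, and SOCS1 on 13 and 41. With ipatasertib STAT2 (0.62, SE 0.07) and the phosphatase PTPN6 (0.53, SE 0.06) rose. With tazemetostat USP18, a brake on type I interferon signalling (0.46, SE 0.18), and IRF9, a DNA-binding partner of STAT2 (0.38, SE 0.11), rose. The count of 4 genes that rose with tazemetostat became 8 under total counts or without tazemetostat A and combination B, and 2 with DESeq2. It was 1 without DMSO A, DMSO B, ipatasertib A, ipatasertib B or tazemetostat B, and 2 without ipatasertib C, tazemetostat C or combination C. The count of 3 that fell with tazemetostat became 0 under total counts or without tazemetostat B, and 1 without DMSO A, DMSO C or tazemetostat C. The 5 that fell in the combination became 3 without DMSO A or with CPM of at least 1 in 3 libraries, and the 3 that fell with ipatasertib became 5 in the fit of the compared groups.

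Of 37 tested interferon-gamma-induced genes, 16 rose and 13 fell in the combination (median log2 change -0.00), 9 rose and 13 fell with ipatasertib (-0.09), and 12 rose and 9 fell with tazemetostat (0.03). The class II genes HLA-DRA and CD74 rose in the combination (log2 change 3.78, SE 0.58, and 2.93, SE 0.55) and with tazemetostat (4.33, SE 0.52, and 3.25, SE 0.50). HLA-DRA rested on 51 summed counts in the combination, 7 with ipatasertib, 112 with tazemetostat and 4 with DMSO, and CD74 on 41, 10, 77 and 6 in these groups. CXCL11, a chemokine for T cells, rose by 2.84 in the combination (SE 0.36), with 88 summed counts there, 11 with ipatasertib, 32 with tazemetostat and 14 with DMSO. CD274, which encodes PD-L1, fell by 2.69 in the combination (SE 0.29) and by 2.12 with ipatasertib (SE 0.28). RARRES3 rose with ipatasertib by 1.26 (SE 0.20). The count of 13 that fell with ipatasertib became 8 under total counts, and that of 9 that fell with tazemetostat became 15 without tazemetostat A and combination B.

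Of 32 tested type I interferon-stimulated genes, 12 rose and 9 fell in the combination (median log2 change 0.14), 6 rose and 11 fell with ipatasertib (-0.14), and 16 rose and 1 fell with tazemetostat (0.29). OAS1, which makes the activator of RNase L, rose by 2.22 in the combination (SE 0.19). CMPK2, a mitochondrial nucleotide kinase, rose by 1.83 in the combination (SE 0.23) and by 2.03 with tazemetostat (SE 0.22). The antiviral enzyme RSAD2 rose by 1.59 in the combination (SE 0.54) and by 2.46 with tazemetostat (SE 0.46). DDX60 fell by 1.05 in the combination (SE 0.08), and OAS2 and IFIT1 fell with ipatasertib by 1.46 (SE 0.52) and 1.15 (SE 0.31). RSAD2 rested on 44 summed counts in the combination, 120 with tazemetostat and 17 with DMSO, and OAS2 on 19 with ipatasertib and 63 with DMSO. The count of 1 that fell with tazemetostat became 2 without tazemetostat A, without combination A or in the fit of the compared groups, and 3 without both tazemetostat A and combination B.

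Of 19 tested genes for other interferon-inducible and dynamin-related GTPases, 4 rose and 12 fell in the combination (median log2 change -0.34), 2 rose and 11 fell with ipatasertib (-0.21), and 3 rose and 5 fell with tazemetostat (-0.10). DNM3, a dynamin, rose by 1.97 in the combination (SE 0.23), 1.11 with ipatasertib (SE 0.26) and 0.72 with tazemetostat (SE 0.25). The endocytic proteins EHD3 and EHD4 moved apart in the combination, by 1.07 (SE 0.13) and -1.03 (SE 0.09). MX1, an antiviral GTPase, rose with tazemetostat by 1.26 (SE 0.29). The count of 11 that fell with ipatasertib became 7 under total counts or without ipatasertib C. The count of 4 that rose in the combination became 2 without combination A or DMSO B, and that of 2 that rose with ipatasertib became 1 without ipatasertib B or DMSO A. With tazemetostat, the 5 that fell became 3 under total counts and 8 without tazemetostat A, combination A or combination B. The 3 that rose with tazemetostat became 5 under total counts or without combination B.

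Of 14 tested genes for prenylation enzymes and known partners of GBP proteins, 7 rose and 4 fell in the combination (median log2 change 0.22), 6 rose and 3 fell with ipatasertib (0.09), and 6 rose and 3 fell with tazemetostat (0.19). The inflammatory caspases CASP1 and CASP4 rose in the combination by 0.97 (SE 0.17) and 0.94 (SE 0.09), and the inflammasome adaptor PYCARD by 0.75 (SE 0.12). CASP1 and PYCARD also rose with tazemetostat, by 0.58 (SE 0.16) and 0.64 (SE 0.11). ZMPSTE24, a protease that processes prenylated prelamin A, fell by 0.83 in the combination (SE 0.08) and by 0.65 with ipatasertib (SE 0.08). The kinase PIM1 rose with ipatasertib by 0.73 (SE 0.08). The count of 6 that rose with ipatasertib became 3 without ipatasertib B.

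**Figure D4:**
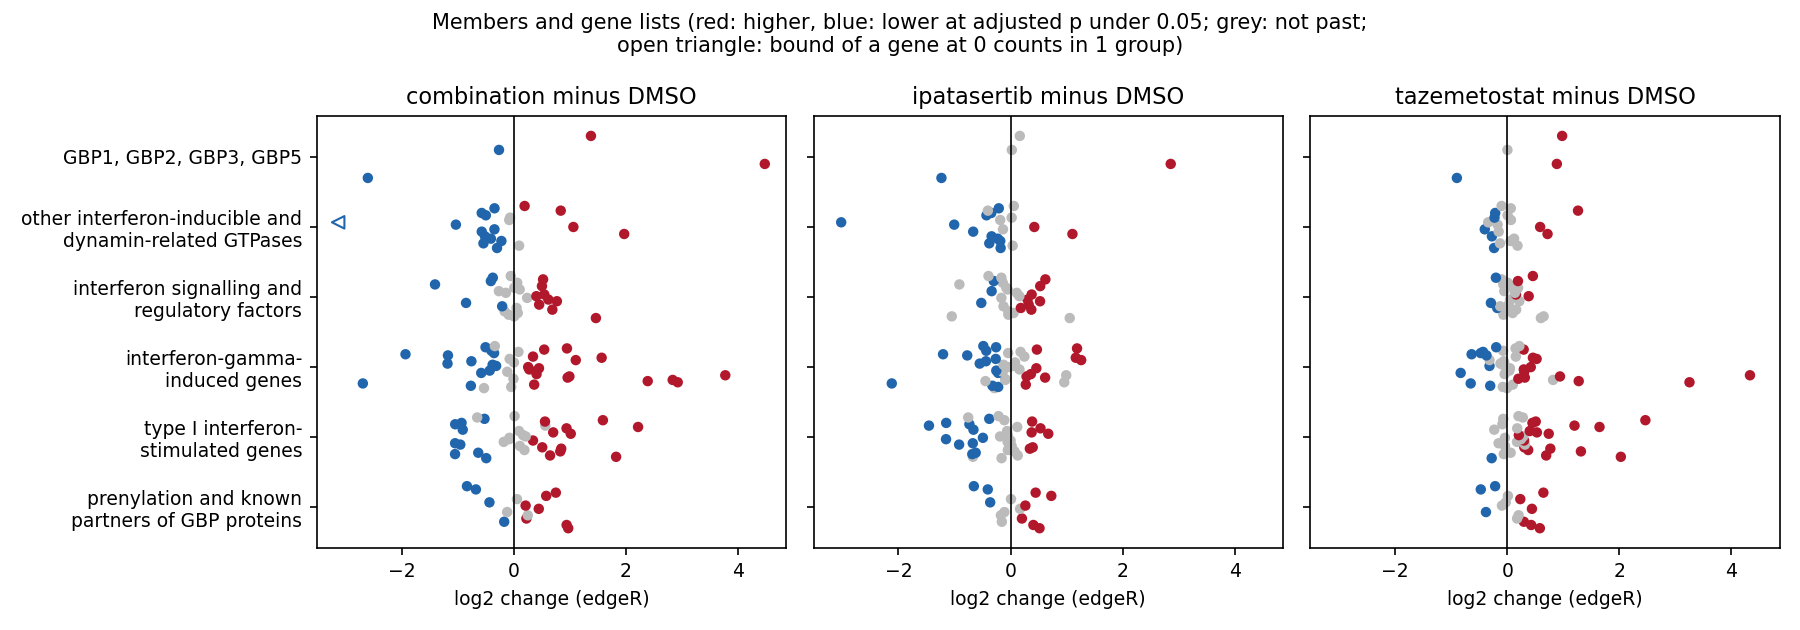
Log2 change of each tested gene of the 4 GBP members and 5 lists, in the combination, ipatasertib and tazemetostat against DMSO, with colour for genes past the threshold. In each list genes lie on both sides of 0, and in the combination GBP2, at 4.48, lies farther above 0 than any gene of the lists.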

How the data were processed

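Polyadenylated RNA was sequenced, and the authors deposited raw read counts per gene for each of the 12 libraries. STAR, SAMtools, HTSeq, DESeq2 and the build hg19 are named per the submitters' processing notes; none of the sources used here gives their versions, the annotation or the strand setting, so overlapping and antisense genes cannot be told apart. The 5 summary lines, with 29.8% to 38.6% of a library's reads, were left out. In R 4.3.3 with edgeR 4.0.16, filterByExpr kept 14874 genes, TMM factors scaled the libraries, and 1 quasi-likelihood fit of 4 group coefficients without a block gave 6 comparisons, adjusted with the Benjamini-Hochberg method at 0.05. The SE is the log2 change divided by the root of its F statistic. CPM are counts scaled to a common library size with the TMM factors. Exon lengths came from GENCODE (GRCh38), with coding sequences, and promoters from RefSeq (GRCh38.p14). Alternatives were RLE or total-count scaling, other filters, DESeq2 1.42.0, fits to the compared groups, a replicate block, and libraries left out. On simulated data for the combination against DMSO (14204 genes) the fit recovered 47 of 50 changes of 1.5-fold and 50 of 50 of 2-fold.

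The members and lists were chosen with earlier results of these data known. Named genes were the 5 members, their 3 nearest neighbours, IFNG, IFNB1, IRF1, GBP6, GBP7, and from each list up to 4 called genes with the largest change in the combination and up to 2 with each inhibitor. IFNA1, IFNGR1, IFNGR2, JAK1 and JAK2 were added after their values were seen. A table of normalised values was not used here, and 1 gene that the rule named is not reported here.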

Additional observations from a re-analysis of the deposited data

Results flagged for a closer look

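The change of GBP2 with ipatasertib differed by the presence of tazemetostat. It was 3.60 with tazemetostat (SE 0.08) and 2.86 without it (SE 0.09), a difference of 0.74 (SE 0.13, adjusted p = 0.00199 by edgeR's quasi-likelihood test over all genes). It stayed past the threshold when each of the 12 libraries was left out in turn, between 0.67 and 0.81. GBP2 was chosen with these results known.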

How the results depend on the processing

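GBP1, GBP2 and GBP5 kept their direction against DMSO in every alternative run, and GBP1 and GBP2 their calls. GBP3 with tazemetostat was near 0: -0.0144 with RLE factors, -0.0144 with DESeq2, -0.00461 without a filter, -0.00563 with CPM of at least 1 in 3 libraries, -0.00466 in the fit of the compared groups, -0.0236 without tazemetostat A and combination B, and -0.0600 to 0.0550 without 1 library. Genes past the threshold for the departure from the summed changes numbered 905 without a filter, 932 with DESeq2 and 4766 without tazemetostat A and combination B, against 539, and 243 to 2443 without 1 library: 2443 without combination B, 1046 without tazemetostat A, and 243 to 329 without any of DMSO A or B, ipatasertib A or B, tazemetostat B or C, or combination C. GBP members past it there were 2 without both libraries and 1 to 2 without 1 library. A second set of FOXO letters (GTAAAC or TGTTTAC) was also in 0 of 3 promoters and in 7.20% of all. Depth limits GBP4, GBP6 and GBP7; the causes were not tested.

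Under total counts, other GTPases lower with ipatasertib numbered 7, higher with tazemetostat 5 and lower 3; signalling genes higher with tazemetostat 8 and lower 0; and interferon-gamma genes lower with ipatasertib 8. Signalling genes lower in the combination numbered 3 with CPM of at least 1, and lower with ipatasertib 5 in the fit of the compared groups, where type I genes lower with tazemetostat numbered 2. Signalling genes higher with tazemetostat numbered 2 with DESeq2. Without tazemetostat A and combination B, the tazemetostat counts were 5 higher and 8 lower for other GTPases, 8 higher for signalling, 15 lower for interferon-gamma genes and 3 lower for type I genes. Without 1 library, other GTPases ranged from 1 to 2 higher and 7 to 11 lower with ipatasertib, 2 to 5 higher and 5 to 8 lower with tazemetostat, and 2 to 5 higher in the combination. Signalling genes ranged from 1 to 6 higher and 0 to 4 lower with tazemetostat and 3 to 6 lower in the combination, type I genes from 1 to 2 lower with tazemetostat, and partner genes from 3 to 7 higher with ipatasertib. Other GTPases higher with ipatasertib numbered 1 without DMSO A or ipatasertib B. With tazemetostat, 5 were higher without combination B and 8 lower without tazemetostat A, combination A or combination B. Signalling genes higher with tazemetostat numbered 1 without DMSO A, DMSO B, ipatasertib A, ipatasertib B or tazemetostat B, and 2 without ipatasertib C, tazemetostat C or combination C. Those lower numbered 0 without tazemetostat B and 1 without DMSO A, DMSO C or tazemetostat C, and those lower in the combination 3 without DMSO A. Type I genes lower with tazemetostat numbered 2 without tazemetostat A or combination A.

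Whether replicate letters pair the libraries was not settled. The 18 same-letter pairs correlated at -0.07 to 0.30, and pairs of other letters at -0.34 to 0.18. Of the same-letter pairs 2 were over 0.1, tazemetostat A with combination A (0.30) and tazemetostat B with combination B (0.21). In all, 6 of 12 libraries correlated best with their own letter. With a replicate block, 8250 genes were past the threshold for ipatasertib, 7123 for tazemetostat, 10698 for the combination and 753 for the departure from the summed changes, and no GBP call changed.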
